A study of Homo sapiens with 6 samples.

Results

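The hepatocyte transcription factors described here are HNF4A, FOXA1, FOXA2, FOXA3, CEBPA, CEBPB, ONECUT2 and PROX1. All probes annotated to these 8 genes were taken, which gave 9 of the 28264 probes on the array: 1 each for FOXA1, FOXA2, FOXA3, CEBPA and CEBPB, and 2 each for ONECUT2 and PROX1. No probe carried the symbol or gene identifier of HNF4A in the annotation used, so HNF4A was not analysed here, and the values cover 7 of the 19090 genes with a probe. Total RNA was amplified, labelled with Cy3 and hybridised to 6 single-colour arrays. By their label the cells were Hep3B, an established hepatocellular carcinoma line, grown in DMEM with 10% fetal bovine serum. The 3 arrays of one group carry the label of transfection with vector (GFP in the sample titles) and the 3 of the other that of transfection with CCN5, a secreted matricellular protein also called WISP2. Both groups share the line and the medium, and no untransfected cells were arrayed. The labels do not say whether transfection was transient or stable, or whether replicates came from separate cultures, so a p-value here covers nothing beyond the variation among these 6 arrays, part or all of which could be technical.

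Hepatocyte identity is held by a small set of DNA-binding proteins that switch on one another and the genes of plasma proteins and liver metabolism. FOXA1, FOXA2 and FOXA3 are forkhead proteins, of which FOXA1 and FOXA2 open compacted chromatin at liver enhancers during development. HNF4A is a nuclear receptor that binds many hepatocyte promoters, CEBPA and CEBPB are basic leucine zipper factors of metabolic and acute phase genes, ONECUT2 is a homeodomain factor of early liver and bile duct development, and PROX1 is a homeobox factor of hepatoblast migration that also defines lymphatic endothelium.

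FOXA1 and FOXA3 are shown by sequence because their probes lay on opposite sides of the comparison that follows. Each line gives the 250 bases before the gene's start in RefSeq (GRCh38.p14), read 5′ to 3′ on the gene's strand. Capitals mark a forkhead core (TGTTTAC or TGTTTGC), C/EBP half-sites (TTGCNNAA), the ONECUT core (ATTGAT) or a TATA box (TATAAA), searched on both strands. FOXA1 lies at chr14:37595250-37595499 on the minus strand and FOXA3 at chr19:45864076-45864325 on the plus strand.
FOXA1: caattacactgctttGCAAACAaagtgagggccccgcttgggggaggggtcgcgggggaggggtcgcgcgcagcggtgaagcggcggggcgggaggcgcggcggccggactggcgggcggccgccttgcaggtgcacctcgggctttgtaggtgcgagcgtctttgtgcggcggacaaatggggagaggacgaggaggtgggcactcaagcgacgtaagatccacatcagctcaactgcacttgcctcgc
FOXA3: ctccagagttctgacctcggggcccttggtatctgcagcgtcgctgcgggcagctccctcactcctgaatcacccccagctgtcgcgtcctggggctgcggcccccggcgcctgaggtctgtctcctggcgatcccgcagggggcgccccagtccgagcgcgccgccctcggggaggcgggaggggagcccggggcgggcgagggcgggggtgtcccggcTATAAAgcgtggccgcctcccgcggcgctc
The FOXA1 window held 1 forkhead core, read as GCAAACA at bases 235 to 229 before the start, and no TATA box. The FOXA3 window held a TATA box at bases 30 to 25 before the start and no forkhead core. Among 34788 different windows of this length, 3.23% held TGTTTGC, 2.98% TGTTTAC and 10.8% TATAAA. The CEBPA window also held TATAAA, at bases 30 to 25 before the start. CEBPB had 2 windows, before 2 different starts. Of these only chr20:50190580-50190829 held TATAAA, at bases 29 to 24 before its start. That window lies almost wholly inside the gene's span, which begins at 50190583. GC content was 67.2% for FOXA1 and 75.2% for FOXA3, against a median of 58.0% over all windows. These are matches of letters, not binding sites.

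Against its label, CCN5 itself was not brighter in the group labelled CCN5. Its single probe read 835, 836 and 880 on vector replicates 1 to 3, and 673, 672 and 619 on CCN5 replicates 1 to 3. The 3 arrays labelled CCN5 all lay below the 3 labelled vector, which on the normalized scale held for 14.8% of all probes. The log2 difference of CCN5 was -0.34 (SE 0.09, limma adjusted p 0.151). Groups are for this reason named by label, and each direction depends on the labels being right. Where the probe lies in the transcript is not stated, and a construct without that stretch would leave it blind to the transfection. Whether that was so was not tested.

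Marker genes were set beside the liver label. All 15 hepatoma markers lay below the 50th percentile of probe signal, with a median percentile of 16.3. AFP, the fetal albumin that Hep3B cells are known to secrete, read 126, 183 and 171 on the arrays labelled vector and 115, 144 and 99.3 on those labelled CCN5, at percentile 26.7. ALB, the most abundant plasma protein, stood at percentile 12.2, FGB, the fibrinogen beta chain, at 10.5, TF, transferrin, at 10.9, and APOA2 at 4.42. The brightest of the list were APOA1 (percentile 48.4), SERPINA1 (45.3), FGA (37.8) and RBP4 (34.8).

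Markers of other epithelia were bright on the same arrays. Of 15 listed squamous or basal markers 11 had a probe, all above the 50th percentile, with a median of 97.0. TP63, KRT6A, KRT6B and KRT17 had none in the annotation used. The marker lists were chosen with earlier results of these data known, so the percentiles describe the arrays and are no independent test of the label. S100A2, a calcium-binding protein of basal epithelium, was among the brightest of all probes, with TRIM29 at percentile 99.1, the basal keratin KRT5 at 98.4 and SFN, an epithelial 14-3-3 protein, at 98.0, while KRT16 (85.8), DSG3 (83.4), PKP1 (78.8) and DSC3 (53.9) were the lowest. Of 8 measured bile duct markers 6 lay above the 50th percentile, led by EPCAM (98.9), KRT7 (91.4), CD24 (89.9) and SPP1 (85.8), with MUC1 at 84.1, KRT19 at 55.1, SOX9 at 39.5 and CFTR at 15.9. The defining markers of hepatoma cells thus went against the label of these cells. A percentile ranks a probe's signal among all probes, and probes differ in how brightly they report a transcript, so it is not an abundance.

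The summed intensity of the 15 hepatoma markers was 1947 to 2538 on the arrays labelled vector and 1961 to 2500 on those labelled CCN5, ranges that overlap. For the 11 squamous markers it was 640737 to 678252 and 655056 to 674757, which also overlap. S100A2 alone made up 357602 to 409044 of these sums. On the normalized scale 9 of the 11 had a log2 difference below 0, against 9916 of all 19090 genes. The other 2 were above 0, KRT5 (0.40, SE 0.17) and DSC3 (0.08, SE 0.16). Groups did not overlap for 4, all lower with the CCN5 label, against 28.0% of all genes (12.0% higher and 16.0% lower). Among these 4 were KRT16 (-0.51) and KRT14 (-0.62, named after its values were seen), while 0 passed limma's test over all probes. At an unadjusted limma p under 0.05 there were 2, both lower, against 19.8% of all genes (8.58% higher and 11.2% lower). The 8 bile duct markers summed to 96724 to 109739 with the vector label and to 91929 to 100202 with the CCN5 label. Of the leukocyte markers 8 of 8 measured had a normalized log2 difference below 0, against 9916 of all 19090 genes, and 0 passed limma's test over all probes. At an unadjusted limma p under 0.05 there were 3, all lower, against 11.2% of all genes that were lower at that p. For 3 the groups did not overlap, all lower, against 16.0% of all genes. The summed deposited intensity of the leukocyte markers was 6832 to 7590 with the vector label and 4813 to 6123 with the CCN5 label. CD68 alone made up 4201 to 4664 and 3064 to 3504 of these sums, so they mostly follow 1 probe. As deposited, though, the means of PTPRC (63.80 and 69.57) and LYZ (24.91 and 25.27) were slightly higher with the CCN5 label. In that list CD68 (percentile 80.8), CD14 (63.1), CSF1R (49.0) and ITGAM (40.7) were the brightest, and NKG7 (33.7), the pan-leukocyte gene PTPRC (15.1), CD3E (12.3) and LYZ (3.83) the dimmest. Fibroblast markers summed to 2620 to 5360 and 4086 to 5085, with COL1A1 (72.3), LUM (63.6), PDGFRB (34.7) and FAP (23.4) brightest and COL1A2 (13.7), DCN (11.1), POSTN (9.87) and COL3A1 (5.92) dimmest. Endothelial markers summed to 2198 to 3020 and 1984 to 3083, from VWF (52.4), PECAM1 (47.4), CLEC4G (46.1) and TEK (38.9) down to CDH5 (33.5), KDR (33.1) and STAB2 (26.2). In RNA of whole cultures, fewer cells of a type and less RNA per cell cannot be told apart. Whether any cells of these types were present, or had a part in the differences below, was not tested.

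**Figure D1:**
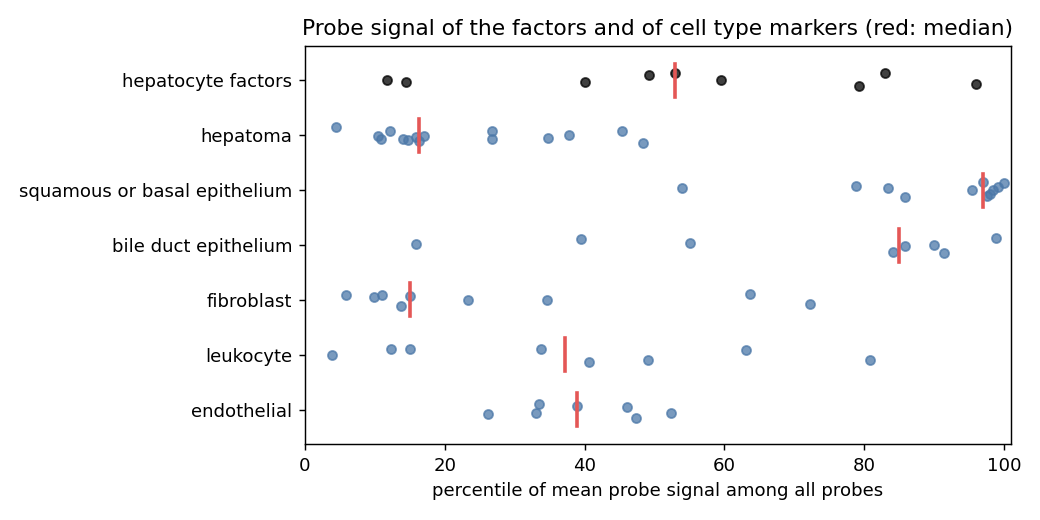
Percentile of mean probe signal among all 28264 probes (x axis) for the 9 hepatocyte factor probes (black) and for the brightest probe of each marker gene (blue), with the median of each row as a red line and a small vertical scatter for legibility. The hepatoma markers all lie below 50, with a median of 16.3, the squamous or basal markers have a median of 97.0, and the hepatocyte factors spread from 11.7 to 96.0.

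The factor probes spread over most of the signal range. CEBPB lay at percentile 96.0, CEBPA at 82.9, FOXA3 at 79.2, FOXA1 at 59.5 and FOXA2 at 53.0. The brighter ONECUT2 probe stood at 49.2, and those of PROX1 at 14.4 and 11.7. All 5 CEBP and FOXA probes lay above the 50th percentile, under which all 15 hepatoma markers lay. The level that separates signal from background on these arrays is unknown, since no detection flags were used here.

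FOXA1 read 1004, 1104 and 1135 on vector replicates 1 to 3 and 937, 876 and 808 on CCN5 replicates 1 to 3. FOXA2 read 673, 836 and 727 with the vector label and 633, 538 and 567 with the CCN5 label. For both of these chromatin-opening factors every array labelled CCN5 lay below every array labelled vector. FOXA3, the forkhead paralog that persists at high level in adult liver, read 2945, 2965 and 3286 with the vector label. It read 3659, 3819 and 3864 with the CCN5 label, so that all 3 of those arrays lay above the 3 labelled vector. The 3 paralogs therefore did not lie on one side: FOXA1 and FOXA2 were dimmer and FOXA3 brighter with the CCN5 label. Such separation was common on these arrays. On the normalized scale, where it also held for these 3 probes, groups did not overlap for 26.6% of all probes (11.8% higher and 14.8% lower). No such share was taken for the deposited values.

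Mean intensity of FOXA1 was 1081 ± 68.6 (SD, n = 3) with the vector label and 873.9 ± 64.7 (SD, n = 3) with the CCN5 label. On the quantile normalized log2 scale that was a difference of -0.27 (SE 0.08, 95% interval -0.47 to -0.08, limma adjusted p 0.174), or 1.21-fold. FOXA2 stood at 745.1 ± 82.9 and 579.2 ± 48.4 (SD, n = 3 each), a log2 difference of -0.32 (SE 0.10, 95% interval -0.56 to -0.08, limma adjusted p 0.183), or 1.25-fold. FOXA3 had the smallest adjusted p of the 9 probes. It stood at 3066 ± 191 and 3780 ± 108 (SD, n = 3 each), a log2 difference of 0.31 (SE 0.09, 95% interval 0.10 to 0.53, limma adjusted p 0.163), or 1.24-fold. With adjustment over all probes, none of the 3 passed the threshold of 0.05.

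**Figure D2:**
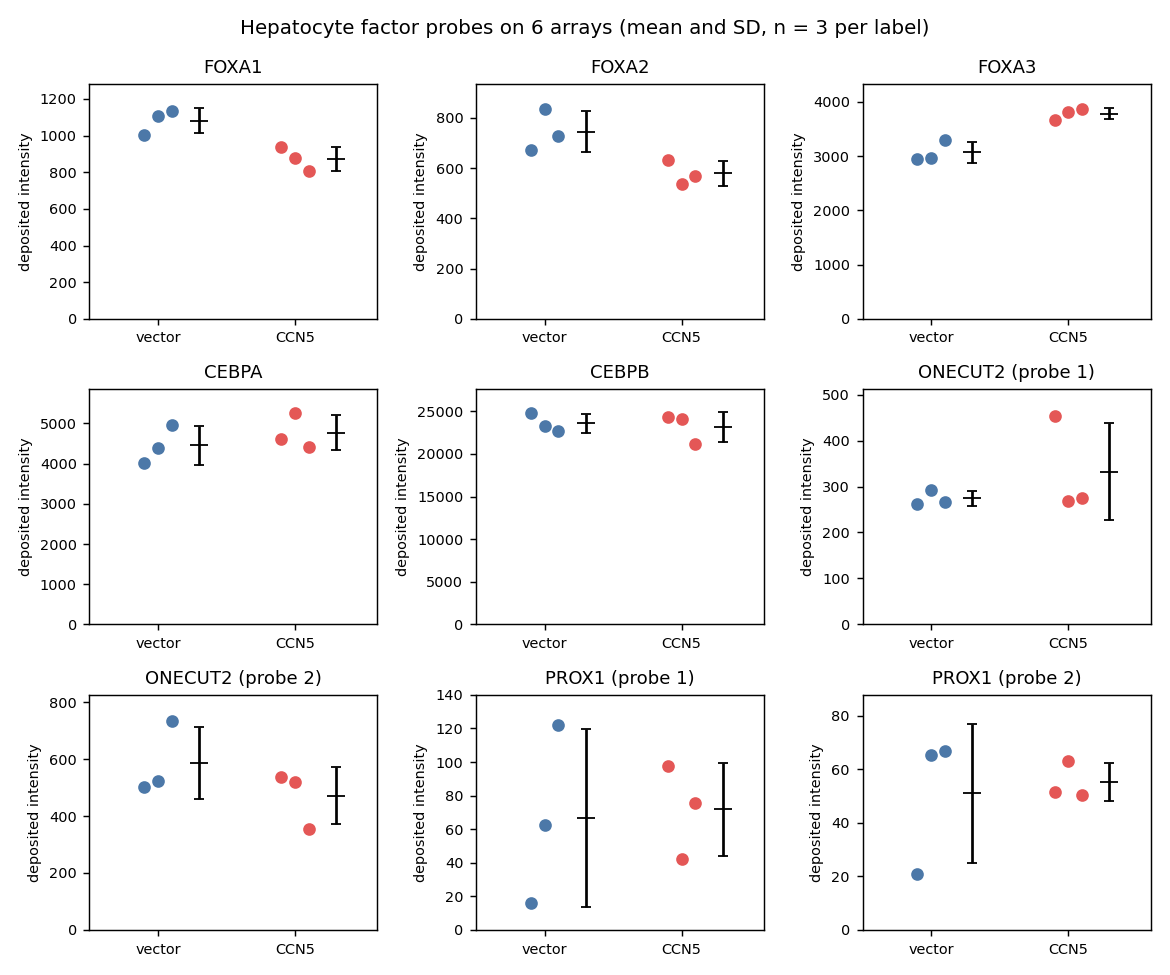
Deposited intensity (y axis, linear from 0) of each of the 9 probes on the 3 arrays labelled vector (blue) and the 3 labelled CCN5 (red), with the mean and SD of each group (n = 3) in black (probe 1 is the dimmer for ONECUT2 and the brighter for PROX1). FOXA1 and FOXA2 lie lower and FOXA3 higher with the CCN5 label without overlap of the points, while the other 6 probes overlap. On the normalized scale the groups did not overlap for 26.6% of all probes.

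The offset between paralogs was also read within each array, a comparison chosen after their values were seen. The log2 signal of FOXA3 minus that of FOXA1 was 1.53, 1.46 and 1.57 on vector replicates 1 to 3, and 2.04, 2.07 and 2.20 on CCN5 replicates 1 to 3. It shifted by 0.58 between the labels. FOXA3 minus FOXA2 was 2.09, 1.87 and 2.23 with the vector label, and 2.65, 2.74 and 2.69 with the CCN5 label. That shift was 0.63. Because the pairs were picked for lying on opposite sides, the shifts only describe these arrays. An exact permutation test of the labels gave p 0.1 for each, the smallest value that 3 against 3 arrays allow. On pairs picked in this way that test cannot decide anything. The offset itself is not a ratio of transcripts.

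CEBPA, which restrains proliferation and drives metabolic genes in hepatocytes, read 4009, 4390 and 4962 on the arrays labelled vector and 4618, 5258 and 4425 on those labelled CCN5. Its groups overlapped, with a log2 difference of 0.10 (SE 0.12, 95% interval -0.18 to 0.38, limma adjusted p 0.664). That difference was 0.03 without vector replicate 1, 0.04 without CCN5 replicate 2 and 0.19 without vector replicate 3. CEBPB, the acute phase and interleukin-6 responsive member, read 24792, 23310 and 22640 with the vector label and 24278, 24053 and 21135 with the CCN5 label. The brightest of the factor probes, it differed by -0.06 on the log2 scale (SE 0.10, 95% interval -0.31 to 0.18, limma adjusted p 0.781), and its sign turned to 0.02 under median centring and without CCN5 replicate 3. For both C/EBP probes the spread between arrays was larger than the difference between labels. The intervals leave room for a log2 difference of up to 0.38 for CEBPA and of down to -0.31 for CEBPB.

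The ONECUT2 probes differed in sign. The brighter one read 502, 524 and 733 with the vector label and 536, 521 and 356 with the CCN5 label, a log2 difference of -0.28 (SE 0.18, 95% interval -0.72 to 0.16, limma adjusted p 0.450). The dimmer one read 263, 293 and 267 with the vector label and 454, 269 and 274 with the CCN5 label. CCN5 replicate 1 was the high array, and the log2 difference of 0.29 (SE 0.16, 95% interval -0.08 to 0.67, limma adjusted p 0.359) became 0.13 without it. The log2 difference of the brighter probe in turn moved to -0.13 without vector replicate 3 and to -0.14 without CCN5 replicate 3. For the dimmer probe the groups did not overlap after normalization but did overlap as deposited. No direction for ONECUT2 can be read from these probes.

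PROX1 was dim on every array. The brighter of its probes read 15.9, 62.5 and 122 with the vector label and 97.6, 42.5 and 75.5 with the CCN5 label, a log2 difference of 0.11 (SE 0.45, 95% interval -0.97 to 1.20, limma adjusted p 0.916). The other read 20.9, 65.3 and 66.9 against 51.5, 63.3 and 50.6, a log2 difference of -0.03 (SE 0.23, 95% interval -0.59 to 0.53, limma adjusted p 0.956). Vector replicate 1 gave the lowest reading for both, and 5.35% of all its probes had intensities under 1, against under 0.1% on each other array. Between labels, a change of PROX1 was not detectable at this signal, and its sign turned under several settings.

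Read together, 0 of the 9 probes passed limma's test over all probes, against 0.0% of all probes. At an unadjusted limma p under 0.05 there were 3, FOXA3 higher (p 0.0114) and FOXA1 (p 0.0142) and FOXA2 (p 0.0173) lower, against 19.0% of all probes (8.62% higher and 10.4% lower). On the normalized scale 4 of 9 had groups that did not overlap, 2 higher and 2 lower, against 26.6% of all probes (11.8% higher and 14.8% lower). With 9 probes these shares are counts of a few genes beside a large background. The median log2 difference of the 9 was -0.03, against -0.0047 over all probes, and the extremes were -0.32 and 0.31.

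**Figure D3:**
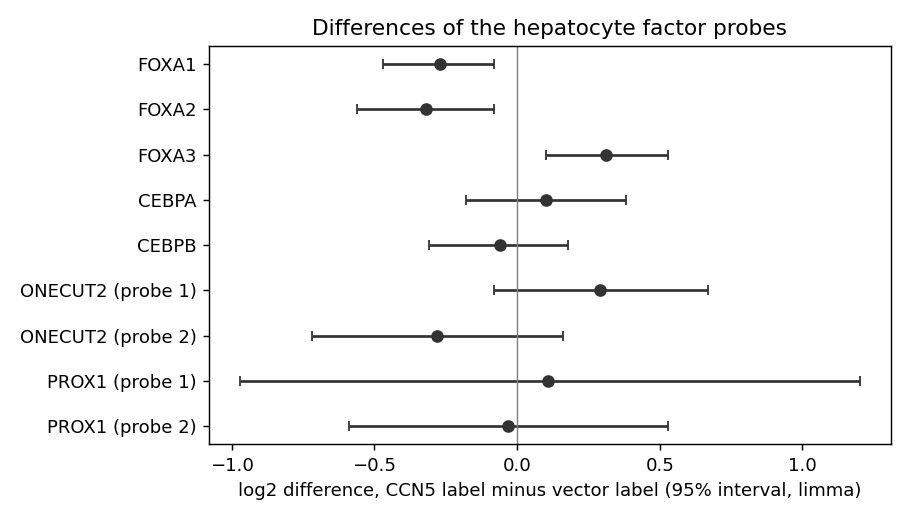
Log2 difference of each factor probe, arrays labelled CCN5 minus arrays labelled vector (x axis), with limma's 95% interval as bars (n = 3 per label). The intervals of FOXA1 (-0.47 to -0.08), FOXA2 (-0.56 to -0.08) and FOXA3 (0.10 to 0.53) do not cross 0, those of the other 6 do, and no probe passed after adjustment over all probes.

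The factors act with other regulators of the hepatocyte network, of which 29 of 34 listed genes had a probe. Among these partners 0 passed limma's test over all probes (0.0% of all genes with 1 probe each), and 6 were under an unadjusted p of 0.05, 3 higher and 3 lower, against 19.8% of all genes (8.58% higher and 11.2% lower). Groups did not overlap for 10 of the 29, 5 in each direction, against 28.0% of all genes (12.0% higher and 16.0% lower). Their median log2 difference was -0.04, against -0.01 over all genes.

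Higher partners by smallest p included KLF15, a Krüppel-like factor of fasting metabolism, with 23.9, 69.9 and 52.0 on the vector arrays and 76.7, 63.3 and 76.4 on the CCN5 arrays. As deposited these values overlapped, and the probe lay at percentile 14.1, with a normalized log2 difference of 0.50 (SE 0.12, limma adjusted p 0.137). ATF5, a stress-responsive bZIP factor abundant in liver, read 639, 638 and 544 against 821, 851 and 925. Its log2 difference of 0.55 (SE 0.14, limma adjusted p 0.151) was the largest of the 29, and the only call among the partners came for ATF5 when the dimmer 50% of probes were left out (adjusted p 0.0452). CEBPZ, which bears the C/EBP name but is a CCAAT-binding and nucleolar protein outside that bZIP family, read 6434, 6796 and 5623 against 7981, 7956 and 8677, a log2 difference of 0.38 (SE 0.11). The endoderm factor GATA6 stood at 0.25 (SE 0.12) and the hepatoblast factor TBX3 at 0.19 (SE 0.08).

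Lower partners by smallest p were led by NR0B2, the small heterodimer partner that represses HNF4A-driven transcription, which read 2003, 2125 and 2130 with the vector label and 1641, 1842 and 1262 with the CCN5 label. Its log2 difference was -0.40 (SE 0.13, limma adjusted p 0.194). DDIT3, the stress-induced bZIP protein that pairs with C/EBP factors, differed by -0.32 (SE 0.11), although its deposited values overlapped at 17800 to 21643 and 14715 to 18166. RXRA, the shared partner of many liver nuclear receptors, read 13601, 13469 and 13076 against 11488, 12127 and 10868, a log2 difference of -0.24 (SE 0.08). CEBPD, another C/EBP gene of the acute phase, differed by -0.21 (SE 0.09) and the receptor ESRRA by -0.13 (SE 0.10), with a second ESRRA probe at 0.13.

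By signal, the brightest partners were CEBPD (percentile 97.3), DDIT3 (94.6), RXRA (92.4) and XBP1 (91.9), a factor of secretory capacity. None of these is restricted to liver. The dimmest were HLF (6.47), ONECUT3 (8.23), the xenobiotic receptor NR1I3 (14.0) and KLF15 (14.1). A second HLF probe, still dimmer at percentile 4.72, gave a log2 difference of 0.81 (SE 0.15) where the first gave 0.07 (SE 0.33).

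Of 40 textbook target genes of these factors 39 had a probe, and 34 of the 39 lay below the 50th percentile of signal, 19 of them below the 25th. All 15 hepatoma markers are among them. Between labels 0 passed limma's test over all probes. Of the 39, 5 were under an unadjusted limma p of 0.05, all lower with the CCN5 label, against 19.8% of all genes (8.58% higher and 11.2% lower). Without overlap of the groups 1 was higher and 5 were lower, against 12.0% and 16.0% of all genes. The median log2 difference was -0.05, against -0.01 over all genes. These counts rest on the brightest probe of each gene, and dimmer probes did not all follow it. A second FGA probe gave 0.62 (SE 0.17) and a second F9 probe 0.85 (SE 0.29), where the brightest gave 0.07 and -0.30. In the other direction, a second APOA1 probe gave -0.51 (SE 0.21), where the brightest gave -0.01.

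The 5 lower targets by smallest p were ORM1, ALB, CPS1, CYP7A1 and AFP. ORM1, an acute phase protein gene that C/EBP factors activate, read 517, 566 and 662 with the vector label and 338, 445 and 313 with the CCN5 label, a log2 difference of -0.65 (SE 0.18, limma adjusted p 0.157), while a second, dimmer probe gave -0.13. ALB read 30.9, 84.9 and 65.0 with the vector label and 50.74 ± 0.748 (SD, n = 3) with the CCN5 label. Its deposited values overlapped, and the normalized log2 difference was -0.46 (SE 0.13, limma adjusted p 0.158). The urea cycle gene CPS1 differed by -0.62 (SE 0.21), CYP7A1, the rate-limiting enzyme of bile acid synthesis, by -0.77 (SE 0.26) at percentile 7.53 with a second, dimmer probe at -0.08, and AFP by -0.46 (SE 0.19). For all of these but ORM1 the deposited values of the groups overlapped.

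Higher targets by smallest p were the oncofetal proteoglycan GPC3 (log2 difference 0.33, SE 0.15), the haptoglobin gene HP (0.34, SE 0.18), the iron sensor TFR2 (0.21, SE 0.12), the thyroxine carrier TTR (0.37, SE 0.33, with a second probe at 0.20) and APOC3 (0.10, SE 0.10). As deposited, the groups overlapped for all of these, and GPC3 (percentile 16.3), HP (24.3) and TTR (26.7) were dim. The 4 brightest targets were UGT1A1 (percentile 98.3), APOC3 (64.2), TFR2 (56.8) and PROC (52.9), and the 4 dimmest MTTP (3.18), IGFBP1 (3.44), APOA2 (4.42) and CYP7A1. UGT1A1 shares its 3′ exons with the other UGT1A genes, so its probe may not tell them apart, and its 2 further probes lay at percentiles 85.0 and 38.2. The bright CEBPB, CEBPA and FOXA3 probes thus stood beside target genes whose probes were mostly dim.

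**Figure D4:**
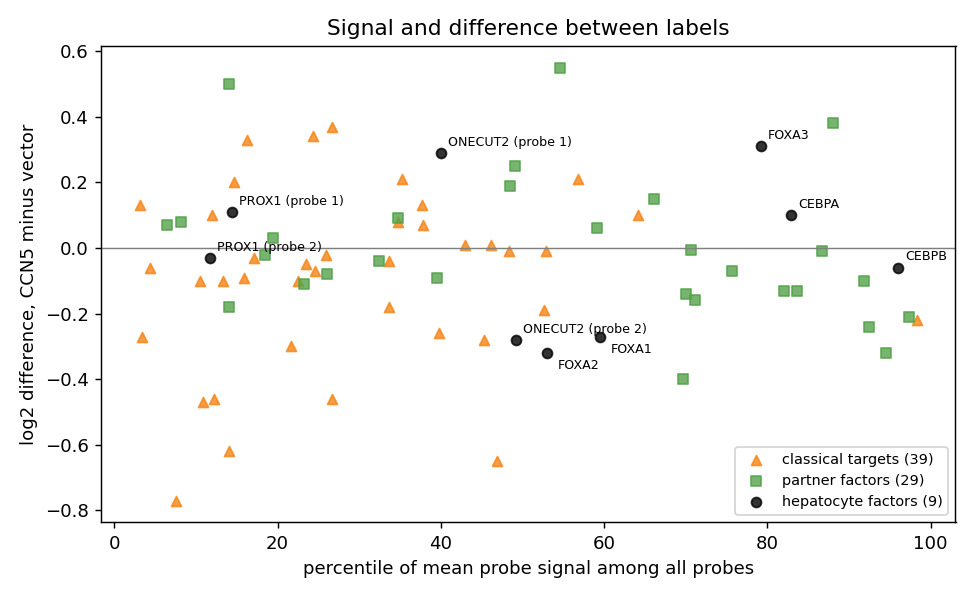
Percentile of mean probe signal (x axis) against the log2 difference, arrays labelled CCN5 minus vector (y axis), for the 9 hepatocyte factor probes (black circles), 29 partner factors (green squares) and 39 classical targets (orange triangles), the latter 2 with the brightest probe per gene. Most target genes lie at low percentiles, 34 of 39 below 50, and no probe shown passed the test over all probes.

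The genes whose signal over the 6 arrays was most like that of each factor were taken from 13157 named probes in the brighter 50%, by Pearson's r of the normalized log2 values. For FOXA1 these were H2AC18 (r = 0.9992) and COL7A1 (0.9979), for FOXA2 VPS29 (0.9915) and RNF130 (0.987), and for FOXA3 PVR (0.9984) and CFL2 (0.9941). For CEBPA they were EIF4B (0.986) and CUL4B (0.9714), and for CEBPB EXOC7 (0.9929) and TFE3 (0.9926). The brighter ONECUT2 probe was nearest to PTP4A2 (0.989) and RBM18 (0.9871), and the brighter PROX1 probe to AHSP (0.9905) and OR2B6 (0.984). These are likenesses over 6 points that share arrays, picked as the highest of many candidates. Those of the FOXA genes also contain the offset between labels, as H2AC18 (-0.51) and COL7A1 (-0.80) were lower and PVR (0.52) and CFL2 (0.37) higher with the CCN5 label.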

How the data were processed

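The authors deposited 1 linear intensity per probe and array. Per the labels' protocols, RNA was amplified from an oligo(dT) T7 primer and labelled with Cy3. How the authors scanned, corrected for background and normalized is not stated in the labels or the table, nor is a genome build. Values below 0 occurred on 3 arrays (1330, 12 and 6 probes), and array medians were 504 to 600.

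Intensities under 1 were set to 1, log2 transformed and quantile normalized. A moderated linear model of label, without covariates, was fitted to all 28264 probes (limma 3.58.1, R 4.3.3), and two-sided p-values were adjusted by Benjamini-Hochberg over the whole table. An adjusted p under 0.05 counted as passed. The platform annotation named 25893 probes, updated by entrez identifier through RefSeq, and 2371 stay unnamed here. Partner, target and marker genes were represented by their brightest probe. The members and lists were chosen with earlier results of these data known. The genes named were all members, and in each partner or target list the 5 of smallest p in each direction and the 4 brightest and 4 dimmest, in each marker list the 4 brightest and 4 dimmest, and the 2 most alike per member.

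The fit was tested on simulated arrays with known changes. The number of arrays limits the precision. The alternatives were 3 other scales, 2 filters on dim probes, another variance model, another threshold, the mean of a gene's probes, the replicate block and leaving out each array. Figures were drawn with matplotlib 3.10.9.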

Additional observations from a re-analysis of the deposited data

How the results depend on the processing

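No probe of the 7 measured factors passed the threshold under any setting. The 3 FOXA genes kept their direction in all 14 settings, with log2 differences of -0.31 to -0.25 for FOXA1 (adjusted p 0.0662 to 0.466), -0.36 to -0.24 for FOXA2 (0.0693 to 0.478) and 0.28 to 0.36 for FOXA3 (0.0574 to 0.459), the smallest p coming without the dimmer 50% of probes. In most of these settings the direction could not turn. Groups that do not overlap keep their order when 1 array is left out. The filters, the other variance model and the replicate block reuse the same differences. The count of settings is therefore no measure of stability. The shift of FOXA3 minus FOXA1, added after seeing the data, was 0.53 to 0.61 and that of FOXA3 minus FOXA2 0.53 to 0.71. CEBPB turned to 0.02 under median centring and without CCN5 replicate 3, and ranged from -0.12 to 0.02 without 1 array. The brighter PROX1 probe turned when 1 array was left out, ranging from -0.13 to 0.57, with -0.09 without vector replicate 2 or CCN5 replicate 1 and -0.02 without CCN5 replicate 3. The other PROX1 probe turned to 0.28 on the deposited scale and 0.33 under median centring, and ranged from -0.29 to 0.10 without 1 array. The cause was not tested. Over all probes the calls numbered 305 with log2(value + 50), 184 without the dimmest 25%, 999 without the dimmest 50%, 524 with a trended and robust variance, 105 at an adjusted p under 0.1, and 0 to 1 without 1 array, against 0. Partner factors called numbered 1 without the dimmest 50% (ATF5, log2 difference 0.55) and targets 0 under every setting. The median of all probes moved to 0.078 under median centring. The replicate block gave 0 calls over all probes and over the factors. By its balanced layout it left the differences at -0.27, -0.32 and 0.31 for FOXA1, FOXA2 and FOXA3. Whether the numbers pair the arrays cannot be told, as same-number deviations correlated at -0.137, 0.118 and 0.017. Dim signal limits PROX1 and most target genes.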
